A study of Mus musculus with 14 samples.

Results

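The regions described here carried an H3K27ac peak in both libraries of Y1 cells given serum alone and in neither library of cells given serum with FGF-2. Peaks of the 4 libraries were merged where they overlapped by at least 1 base, which gave 59178 regions, and 2095 of them (3.54%) met this rule. They were chosen by the H3K27ac peak calls of these libraries, so every H3K27ac value below is a description of that choice, whereas the RNA of the nearest genes comes from other libraries and was tested. Y1 cells are a line from an adrenocortical tumour of a mouse. All were starved of serum for 48 h. One group then received 10% fetal bovine serum and FGF-2 (fibroblast growth factor 2, at 10 ng/ml), the other received 10% serum alone, and both were collected at 5 h. H3K27ac was measured in 2 libraries per group and polyadenylated RNA in 3 libraries per group. Starvation and serum are thus shared by both groups, the cells are 1 line with no untreated group among the libraries analysed, and the chromatin was cross-linked after frozen pellets had been thawed.

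Acetylation of lysine 27 of histone H3 is placed by the acetyltransferases p300 and CBP and removed by histone deacetylases. It marks promoters and enhancers that are in use, and enhancers can act on genes far along the chromosome, so the nearest gene used below need not be the gene a region acts on. In adrenocortical cells, ACTH through cyclic AMP drives steroid synthesis, and FGF-2, which acts through receptor tyrosine kinases and the ERK pathway, is a mitogen for many cell types.

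The H3K27ac libraries held 12447135 and 11840994 fragments with FGF-2, against 12856806 and 14156846 with serum alone. Their inputs were less even, with 12241177 and 12576377 fragments with FGF-2, against 15672630 and 110273836 with serum alone. The part of input depth in the peak calls was not tested. The RNA libraries held 5625004 to 12696426 counts in genes. Adrenocortical markers were present in both groups: 7 of 8 reached 1 CPM in at least 1 library, and their summed level was 2692 to 4123 CPM with FGF-2 and 939 to 1225 CPM with serum alone. Most of that difference was Star, the carrier of cholesterol into mitochondria, with 2012, 1715 and 3162 CPM with FGF-2, against 97.0, 117 and 281 CPM with serum alone, whereas Nr5a1, the gene of SF-1, had 63.9 to 82.4 CPM with FGF-2 and 68.2 to 85.1 CPM with serum alone. The ACTH receptor gene Mc2r was at or below 0.213 CPM in every library, and Hsd3b1 at or below 1.99 CPM. Of 6 fibroblast and capsule markers, 3 reached 1 CPM, with sums of 1840 to 2645 CPM with FGF-2 and 2540 to 3185 CPM with serum alone, while Col1a2 and Dcn were at 0. Medulla markers summed to 1.5 to 2.72 CPM with FGF-2 and 5.26 to 7.02 CPM with serum alone, with Th and Dbh at 0, and endothelial and blood markers to 9.27 to 11.8 CPM and 8.60 to 14.6 CPM, with Hba-a1 at 0. The part of the fibroblast and medulla markers in the results below was not tested. None of the 17 markers of these other cell types was the nearest gene of a region.

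Few of the regions lay over a gene start. Among 32851 RefSeq promoter windows (build GRCm38.p6, the same chromosome sequence as the mm10 build of the files), 81 windows of 75 genes were overlapped by 75 of the regions. Shown here are the 250 bases before the start of the 6 genes for which at least 90 of these bases fell inside a region and whose RNA was called with a log2 fold change of 1 or more in size. The bases inside the region are in capitals, and each window reads 5′ to 3′ along its gene. They lie at chr8:110721226-110721475 (plus strand, Mtss2), chr1:191821223-191821472 (plus, Nek2), chr9:71771603-71771852 (minus, Cgnl1), chr9:72438279-72438528 (plus, Mns1), chr5:115845406-115845655 (plus, Cit) and chr9:70207100-70207349 (plus, Myo1e).
Mtss2: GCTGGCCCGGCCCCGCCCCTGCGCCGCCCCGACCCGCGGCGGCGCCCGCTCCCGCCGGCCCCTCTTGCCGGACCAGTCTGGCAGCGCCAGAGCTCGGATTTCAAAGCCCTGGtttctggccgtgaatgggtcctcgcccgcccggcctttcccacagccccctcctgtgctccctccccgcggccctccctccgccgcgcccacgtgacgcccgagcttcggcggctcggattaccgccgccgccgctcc
Nek2: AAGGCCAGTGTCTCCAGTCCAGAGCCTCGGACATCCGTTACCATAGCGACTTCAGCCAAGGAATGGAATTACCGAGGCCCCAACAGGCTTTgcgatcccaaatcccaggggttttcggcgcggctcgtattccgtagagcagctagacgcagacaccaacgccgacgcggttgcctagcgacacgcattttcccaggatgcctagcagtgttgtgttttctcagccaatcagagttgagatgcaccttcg
Cgnl1: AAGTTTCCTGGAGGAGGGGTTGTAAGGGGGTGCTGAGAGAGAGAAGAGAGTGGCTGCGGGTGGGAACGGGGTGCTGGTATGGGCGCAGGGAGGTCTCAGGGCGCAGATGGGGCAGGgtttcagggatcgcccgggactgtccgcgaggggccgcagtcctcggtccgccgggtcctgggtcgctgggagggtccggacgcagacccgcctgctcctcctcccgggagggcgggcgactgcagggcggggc
Mns1: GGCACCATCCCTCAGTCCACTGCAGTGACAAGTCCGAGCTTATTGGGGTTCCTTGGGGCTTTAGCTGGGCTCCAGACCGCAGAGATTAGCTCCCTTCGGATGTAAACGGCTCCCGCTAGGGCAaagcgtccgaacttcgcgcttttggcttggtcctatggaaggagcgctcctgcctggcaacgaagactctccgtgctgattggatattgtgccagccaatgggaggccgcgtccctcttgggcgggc
Cit: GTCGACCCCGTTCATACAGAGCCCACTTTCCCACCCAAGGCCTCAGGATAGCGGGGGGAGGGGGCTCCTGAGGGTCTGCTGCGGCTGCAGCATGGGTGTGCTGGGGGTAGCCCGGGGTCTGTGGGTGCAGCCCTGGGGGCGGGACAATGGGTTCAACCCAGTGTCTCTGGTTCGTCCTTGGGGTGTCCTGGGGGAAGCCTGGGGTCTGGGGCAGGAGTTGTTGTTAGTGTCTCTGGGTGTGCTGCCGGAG
Myo1e: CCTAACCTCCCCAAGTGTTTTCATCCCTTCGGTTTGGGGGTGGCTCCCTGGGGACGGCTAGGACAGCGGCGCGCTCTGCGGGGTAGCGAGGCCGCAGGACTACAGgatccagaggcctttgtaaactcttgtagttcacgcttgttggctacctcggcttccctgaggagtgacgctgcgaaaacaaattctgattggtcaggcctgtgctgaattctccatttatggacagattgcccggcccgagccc

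The acetylated stretch reached 112 bases into the Mtss2 window, 91 into Nek2, 116 into Cgnl1, 123 into Mns1 and 105 into Myo1e, in each case from the far end, and covered all 250 bases before Cit. The windows were 56.0% (Nek2) to 77.2% (Mtss2) G and C. Inside the capitals, the Nek2 window held 1 GGAATG, the core bound by TEAD factors, the Mtss2 window held 2 copies of the SP1 core GGGCGG and 1 GGCGCC, and the Cit window 1 GGGCGG, counting both strands. None of the 11 motifs searched lay inside the capitals of Cgnl1, Mns1 or Myo1e.

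RNA is given as CPM, the reads of a gene relative to those of its library, scaled by TMM factors, and tested with edgeR's quasi-likelihood test, with p-values adjusted by the Benjamini-Hochberg method over all 10374 tested genes and called under 0.05. By that test 24.2% of all tested genes fell with FGF-2 and 22.1% rose. Of the 75 genes with an overlapped window 44 were tested, and 11 fell, 4 rose and the median log2 fold change was -0.22. The labels do not say whether libraries of a group came from separate cultures, so the p-values measure the spread between these libraries, which may be technical. In bulk samples such as these, fewer cells of a kind and less RNA or less of the mark per cell cannot be told apart.

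Of the 6 genes shown, which were chosen for their RNA calls, 5 fell and Myo1e rose. Cit encodes citron kinase, which acts in cytokinesis, and had 7.70, 11.3 and 9.42 CPM with FGF-2, against 24.9, 18.8 and 19.8 CPM with serum alone (log2 fold change -1.16 ± 0.18 SE, adjusted p = 0.00080). Its region had deposited H3K27ac signals of 10.5 and 9 with FGF-2, against 28.6 and 17.6 with serum alone. Nek2, a kinase of the centrosome, had 11.3, 14.2 and 11.2 CPM with FGF-2, against 35.9, 36.1 and 28.9 CPM with serum alone (-1.45 ± 0.15 SE, adjusted p = 8.0e-05). Both genes were lower in every FGF-2 library than in any serum library. Mtss2 (listed as Mtss1l), Cgnl1, a protein of cell junctions, and Mns1 had log2 fold changes of -1.52 ± 0.25, -1.41 ± 0.18 and -1.27 ± 0.22. Myo1e, a class I myosin, went the other way, with 245, 174 and 212 CPM with FGF-2, against 89.4, 122 and 99.8 CPM with serum alone (1.02 ± 0.16 SE, adjusted p = 0.00065).

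Over all 81 overlapped windows the G and C content had a median of 54.7%, against 56.2% in the 74 windows overlapped by regions with peaks only with FGF-2, 62.0% in the 11040 overlapped by regions with peaks of all 4 libraries and 52.7% in all windows. The ratio of observed to expected CG pairs, which is high in CpG islands, was 0.6 or more in 50.6% of the 81 windows, against 37.8%, 77.5% and 35.8% of the other sets in the same order. The SP1 core GGGCGG was in 40.7% of the 81 windows, against 66.6% of those with peaks of all 4 libraries and 35.7% of all windows. The ETS core CCGGAAG was in 8.64%, against 20.4% and 8.86%, and GGCGCC in 21.0%, against 23.3% and 11.9%. The AP-1 motif TGANTCA was in 9.88% of the 81 windows, which is 8 windows, in 17.6% of the 74 windows of regions only with FGF-2, which is 13 windows, and in 7.81% of all windows. The SF-1 motif CAAGGTCA was in none of the 81. The cyclic AMP response element TGACGTCA was in 1 window, and so was the FOXO motif TGTTTAC. The TEAD core GGAATG was in 14.8% of the 81 windows and in 14.7% of all windows. The RUNX motif TGTGGT was in 12.3%, against 16.8% of all windows, and the E-box CAGCTG in 13.6%, against 16.3%. The GATA motif AGATAA was in 11.1%, against 11.2% of all windows. AP-1 was not the only motif with another share in the 74 windows of regions only with FGF-2. There SP1 was in 48.65%, TEAD in 18.9%, RUNX in 16.2% and the E-box in 20.3%. ETS was in 2.70% of the 74, GGCGCC in 6.76% and GATA in 10.8%. None of these differences was tested. An absent motif means only that these letters are not in the window. The motifs were counted on both strands and overlaps between motifs were kept.

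In H3K27ac the regions were weak and narrow. In the serum libraries that chose them, their peaks had a median fold over background of 5.41 and 5.61 and a median −log10 q of 6.51 and 6.25, all values of the authors' peak caller, against median folds of 13.7 and 12.1 for regions with peaks of all 4 libraries. Regions with peaks only with FGF-2 had similar median folds, 6.07 and 5.81 in the FGF-2 libraries. The median width of the 2095 regions was 407 bases (161 to 2297), against 1251 bases for regions with peaks of all 4 libraries and 405 bases for regions with peaks only with FGF-2. In the authors' deposited region table, where each of the 2095 overlapped exactly 1 region, the median signal was 7.61 and 8 with FGF-2, against 18.4 and 15.9 with serum alone. That signal is whole reads divided by a factor per library, and the medians stand for 8 and 8 reads with FGF-2, against 20 and 19 reads with serum alone. Regions with peaks of all 4 libraries had medians of 84.6 and 86.0 with FGF-2, against 88.4 and 71.0 with serum alone.

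**Figure D1:**
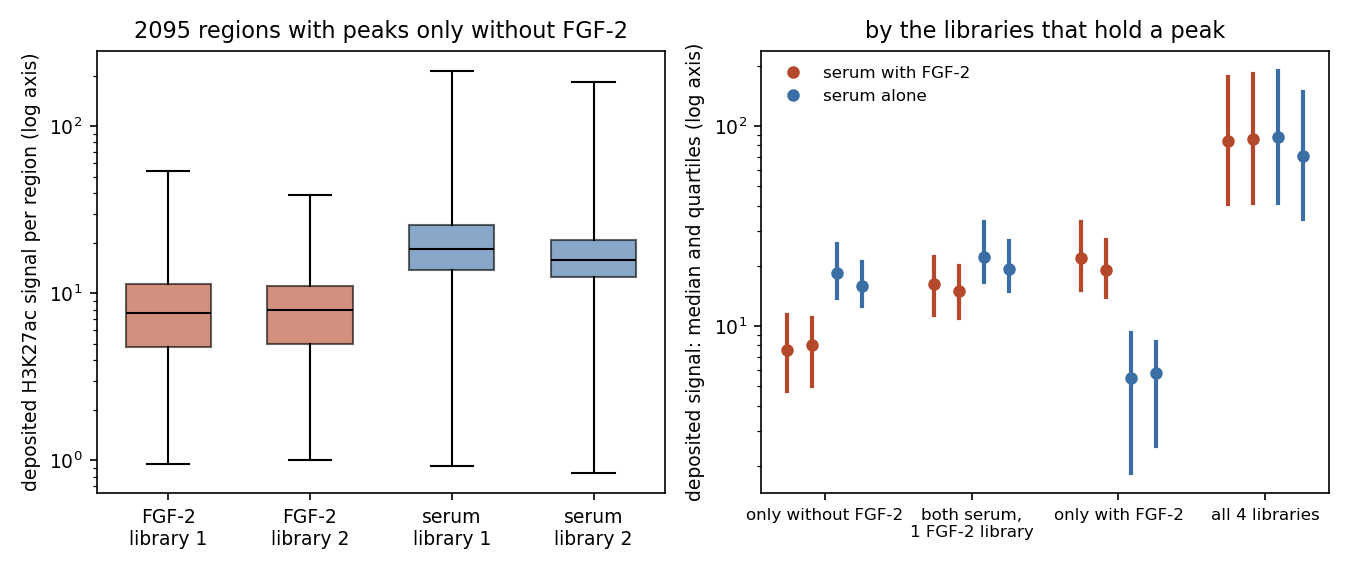
Deposited H3K27ac signal per region on log axes. Left, boxes give the median and quartiles and whiskers the whole range in the 2095 regions for each FGF-2 and serum library. Right, dots are medians and lines quartiles for 4 kinds of region, and the regions with peaks only without FGF-2 have medians of 7.61 and 8 with FGF-2 beside 18.4 and 15.9 with serum alone.

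Absence of a peak with FGF-2 was seldom absence of signal. Both FGF-2 libraries lay below both serum libraries in 1863 of the 2095 regions (88.9%), an order that the rule favours. The same order was found in 43.0% of regions with peaks of both serum libraries and exactly 1 FGF-2 library. It was found in 16.1% of regions with peaks of all 4 libraries. Only 21 of the 2095 (1.00%) were at the table's floor of 1 read in both FGF-2 libraries. The authors' deposited log2 fold had a median of -1.18 (quartiles -1.68 and -0.81, range -4.89 to 0.43), and it was above 0 in 20 regions. At the authors' deposited false discovery rate under 0.05, 188 regions (8.97%) were lower with FGF-2, where 1.64% of all 40772 deposited regions were. An edgeR test on the recovered reads called 585 of them lower, where 6.69% of all deposited regions were called lower, and 383 with the library number as a block. For the test with the block no share of all deposited regions was taken, so the 383 have no background beside them. These calls rest on the same libraries as the rule.

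At the edge of the rule, the weaker of the 2 serum peaks had a median −log10 q of 4.93, and the 200 regions weakest by it spanned 2 to 2.94, just above the peak caller's limit. Just outside it, 2841 regions had peaks of both serum libraries and of exactly 1 FGF-2 library. Their FGF-2 peak had a median −log10 q of 5.94, their median signals were 16.2 and 15.0 with FGF-2, against 22.1 and 19.2 with serum alone, and their median deposited log2 fold was -0.47.

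The regions lay mostly away from promoters. Of the 2095, 775 (37.0%, 95% Wilson interval 35.0 to 39.1) were distal intergenic, 593 (28.3%, 26.4 to 30.3) in a later intron, 297 (14.2%, 12.8 to 15.7) in a first intron and 151 (7.21%, 6.18 to 8.40) within 1 kb of a gene start, by the authors' annotation. Regions with peaks of all 4 libraries had 44.1% within 1 kb of a start and 20.3% distal intergenic. Of regions with peaks only with FGF-2, 3.84% lay within 1 kb of a start (3.28 to 4.48), and 34.9% were distal intergenic (33.4 to 36.4). The share within 1 kb was thus higher without FGF-2 with intervals that did not meet, while 1 to 3 kb from a start the shares were 5.59% and 6.03% with intervals that did. These intervals cover counting error only and treat regions as independent.

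**Figure D2:**
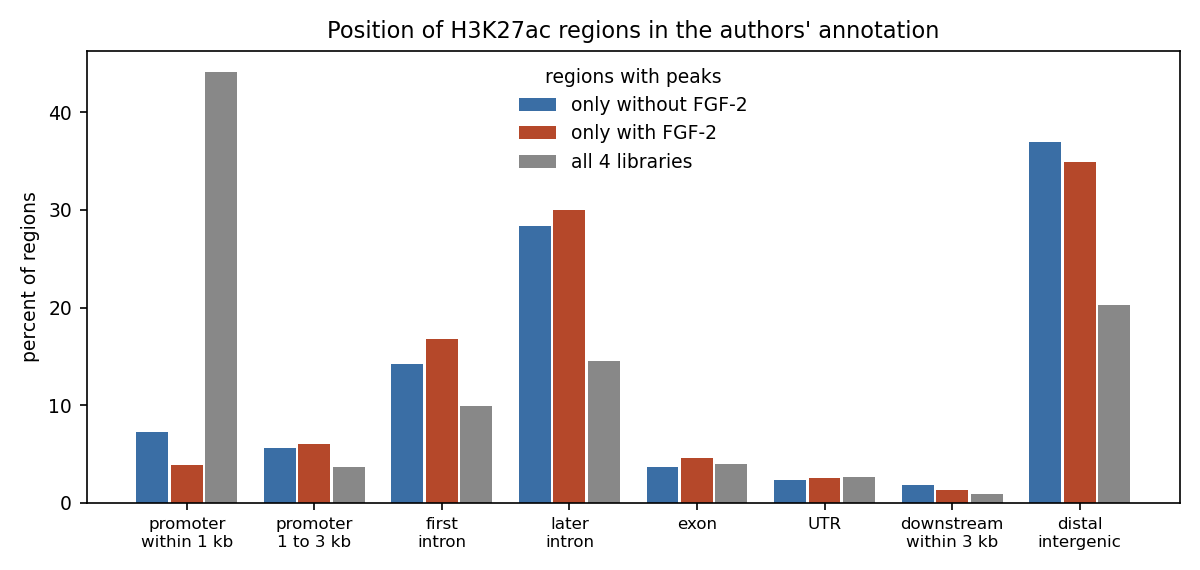
Percent of H3K27ac regions in each class of the authors' annotation, for regions with peaks only without FGF-2 (n = 2095), only with FGF-2 (n = 3961 annotated) and in all 4 libraries (n = 25563 annotated). Within 1 kb of a gene start lie 7.21%, 3.84% and 44.1% of them.

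They were also scattered. Another region of the same kind lay within 10 kb of 485 of them (23.2%), against 43.2% of the regions with peaks only with FGF-2, and the median distance to the next was 124 kb, against 20.1 kb. The kinds also differed in number, 2095 against 3965 regions, and the part of this in the distances was not tested. They formed 221 clusters of at least 2 with gaps up to 10 kb, the largest of 5 regions. A region with peaks of all 4 libraries was nearby in both cases, at a median of 6.71 kb, against 6.51 kb. Among the autosomes and X they made up from 2.77% (chromosome 7) to 4.31% (chromosome 15) of all merged regions.

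The regions with the strongest serum peaks stood far above the rest. The region in an exon of Nfasc (chr1:132594921-132596424), which encodes the cell adhesion molecule neurofascin, had signals of 2.85 and 6 with FGF-2, against 116 and 89.4 with serum alone (deposited log2 fold -4.54). An intronic region of Uba6 (chr5:86113319-86114034), a ubiquitin-activating enzyme, had 12.4 and 13.0 with FGF-2, against 76.4 and 45.1 with serum alone. A region 21.0 kb before the start of Fhl2 (chr1:43217721-43219090), a LIM-domain cofactor, had 22.8 and 18.0 with FGF-2, against 82.0 and 71.9 with serum alone. In all 3 regions both serum values lay above both FGF-2 values. A region beyond Map3k7, which encodes the kinase TAK1, had 3.8 and 8 with FGF-2, against 51.6 and 30.9 with serum alone, and one 5.09 kb before Klrg2 had 10.5 and 21.0, against 99.5 and 56.8.

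The lowest deposited folds, besides Nfasc, belonged to weaker regions at the floor of 1 read in both FGF-2 libraries. The region nearest to Gm19990 (chr12:56297953-56298745) had 0.95 and 1 with FGF-2, against 38.7 and 19.2 with serum alone (deposited log2 fold -4.89). Regions nearest to Pdcd1lg2, D030025E07Rik, Mllt3, Itih3, Sec63 and Lrmda (listed as 1700112E06Rik in the RNA files) had the same 2 FGF-2 values and serum signals between 14.7 and 26.7, with deposited log2 folds of -4.45 to -4.19. At such a floor a fold depends on the 1 read assigned to it. In RNA, Nfasc fell, Uba6 rose (0.51 ± 0.10 SE, adjusted p = 0.0031, though not called when libraries were scaled by their totals), and Fhl2 (-0.31 ± 0.19 SE), Map3k7 (0.13 ± 0.10), Klrg2 (0.49 ± 0.19), Mllt3 (0.24 ± 0.15) and Lrmda (0.35 ± 0.18) did not pass, with adjusted p of 0.061 to 0.31. Gm19990, Pdcd1lg2, D030025E07Rik, Itih3 and Sec63 were not among the genes tested in RNA.

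**Figure D3:**
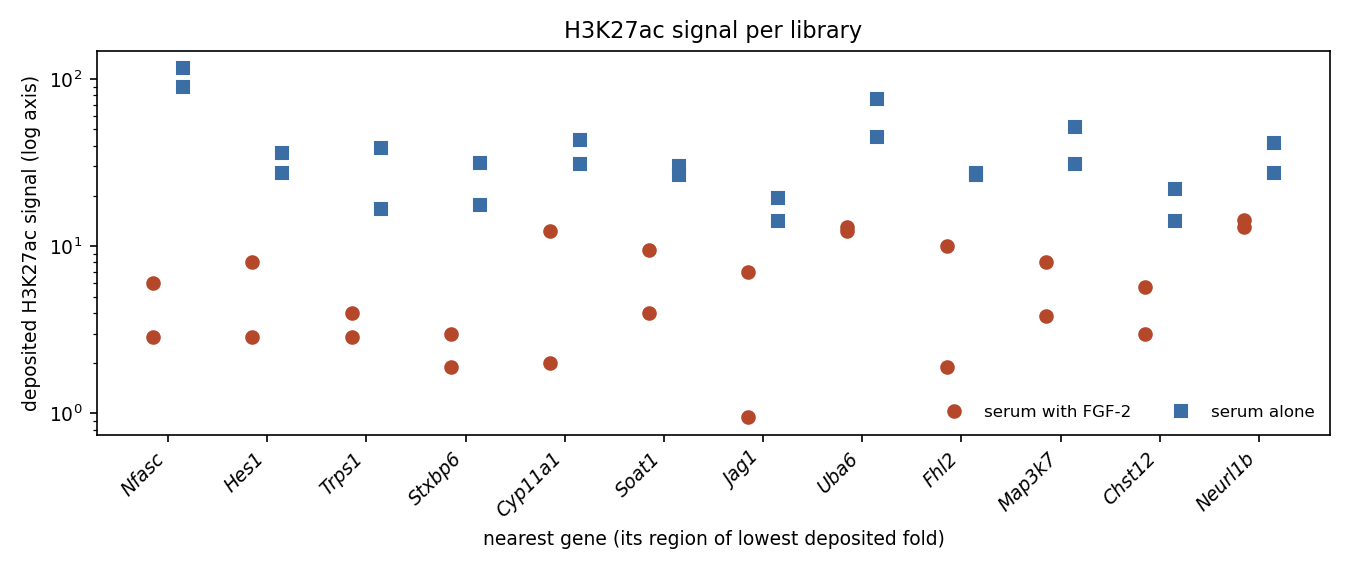
Deposited H3K27ac signal on a log axis for 12 regions, each the region of lowest deposited fold of the gene named below it (for Fhl2 the one 84.4 kb before its start). Round points are the 2 FGF-2 libraries and squares the 2 serum libraries, and for Nfasc they stand at 2.85 and 6 beside 116 and 89.4.

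For RNA, 2079 of the regions were tied by nearest gene to 1558 genes of the count files, and 1032 of these genes passed the filter on low counts. With FGF-2, 356 of the 1032 fell (34.5%) and 197 rose (19.1%) by edgeR's quasi-likelihood test at a Benjamini-Hochberg adjusted p of 0.05 over all genes, where 24.2% of all 10374 tested genes fell and 22.1% rose. Their median log2 fold change was -0.21, against -0.02 over all tested genes. Falls of at least 1 on the log2 scale numbered 169 of the 1032 tied genes, against 940 of all 10374 tested genes. Rises of at least 1 numbered 63 of the 1032, against 707 of all 10374. The tied genes were somewhat more abundant, with a median of 43.4 CPM, against 31.8 CPM over all tested genes. Other scalings moved the median of all genes, to -0.16 with upper-quartile factors and -0.36 with library totals, but the tied genes stayed 0.19 below it (differences of -0.185 with the main TMM factors, -0.186 and -0.188). The share of rises among all calls was 47.7% with TMM factors, 32.7% with upper-quartile factors and 18.1% with library totals.

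Falls grew more frequent with the number of regions per gene. Of genes tied to 1 region, 253 of 784 fell (32.3%) and 155 rose (19.8%), and of those tied to 2 regions, 69 of 179 fell (38.5%) and 37 rose (20.7%). Of the 69 genes tied to 3 or more, 34 fell (49.3%), 5 rose (7.25%) and 30 did not pass, with a median log2 fold change of -0.51. Genes tied to regions with peaks only with FGF-2 ran the other way: 586 of 1599 rose (36.6%) and 306 fell (19.1%), and among the 262 tied to 3 or more such regions 145 rose (55.3%) and 26 fell (9.92%). The 292 tested genes tied to regions of both kinds had 89 falls (30.5%) and 84 rises (28.8%). Genes tied to both kinds were 381 in all, 24.5% of the genes of the regions without FGF-2 and 16.8% of the genes of those with it. The size of the H3K27ac difference did not order the genes in the same way. With the regions in 4 equal groups by deposited log2 fold, lowest first, 33.7%, 38.2%, 37.7% and 34.2% of the tied genes fell, and genes of the 188 regions with a deposited false discovery rate under 0.05 fell in 38 of 105 cases (36.2%).

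**Figure D4:**
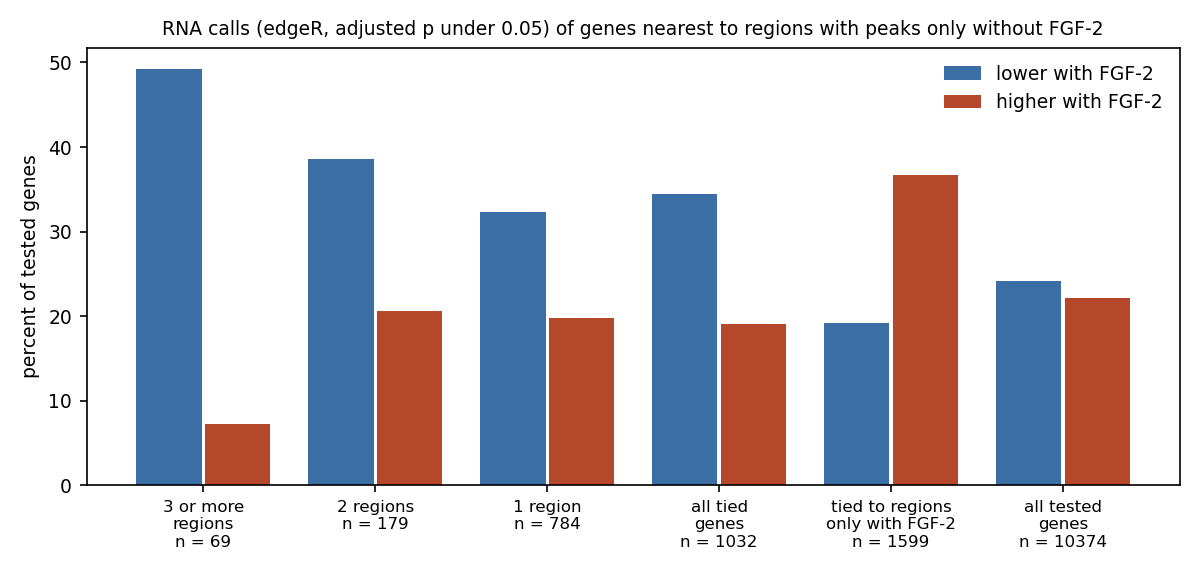
Percent of tested genes that were lower or higher in RNA with FGF-2 (edgeR, adjusted p under 0.05), by the number of regions with peaks only without FGF-2 that a gene is nearest to, beside genes of regions with peaks only with FGF-2 and all tested genes. Falls make up 49.3% at 3 or more regions, 38.5% at 2 and 32.3% at 1, against 24.2% of all tested genes.

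Genes with several regions were long, and length moved with the calls. The median gene length was 203 kb for genes tied to 3 or more regions, 53.0 kb for those tied to 1 or 2 and 20.6 kb for those tied to none. Within genes of 100 kb or more, 23 of 48 genes tied to 3 or more regions fell (47.9%), as did 111 of 289 tied to 1 or 2 (38.4%) and 262 of 866 tied to none (30.3%). Within genes under 30 kb, 111 of 330 tied genes fell (33.6%), against 1263 of 5885 tied to none (21.5%), and from 30 to 100 kb 110 of 364 (30.2%), against 628 of 2566 (24.5%). Rises made up 16.6% of the tied genes of 100 kb or more, against 22.2% of those tied to none, 24.5% against 25.1% from 30 to 100 kb and 15.8% against 21.3% under 30 kb. The medians lay closest from 30 to 100 kb, at -0.08 for tied genes and -0.01 for those tied to none. The part of length in the result was not tested.

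By position, 39 of 107 genes with a region within 1 kb of a start fell and 10 rose (36.4% and 9.35%). With a region 1 to 3 kb away, 28 and 8 of 74 did (37.8% and 10.8%). The counts were 70 and 40 of 197 for the first intron (35.5% and 20.3%) and 132 and 68 of 334 for a later intron (39.5% and 20.4%). They were 115 and 69 of 331 for distal intergenic regions (34.7% and 20.9%). Genes with a region in an exon, UTR or downstream lay nearer to all tested genes, with 29 and 21 of 107 (27.1% and 19.6%). Of all tested genes 24.2% fell and 22.1% rose. Among promoter regions with an RNA call, Klhdc8a, Tnk2, Nceh1, Cln6, Rgs4, Casc5 (now Knl1), Chst12, Nek2, Neurl1b and Dlk2 had the smallest adjusted p, and Rgs4 was the rise among them. The regions of Tnk2, Nceh1, Cln6, Casc5, Chst12, Nek2 and Dlk2 lay 104 to 409 bases from a region with peaks of all 4 libraries. Peaks were thus also called with FGF-2 close to these regions. Those of Klhdc8a, Neurl1b and Rgs4 lay 1850, 7806 and 27119 bases from such a region. Tnk2, a tyrosine kinase also called ACK1, had 51.7, 47.2 and 40.4 CPM with FGF-2, against 116, 126 and 127 CPM with serum alone. Nceh1, an enzyme that hydrolyses cholesterol esters, had 44.0, 46.0 and 39.3 CPM with FGF-2, against 105, 116 and 133 CPM. Casc5, a scaffold of the kinetochore, had 14.4, 17.5 and 12.9 CPM with FGF-2, against 48.4, 43.4 and 38.01 CPM with serum alone. Its region shows how slight a difference the rule admits, with signals of 12.4 and 13.0 with FGF-2, against 14.7 and 15.0 with serum alone. Rgs4, a regulator of G protein signalling, had 155, 158 and 165 CPM with FGF-2, against 55.7, 63.1 and 43.8 CPM, while the signal at its start was 15.2 and 14.0 with FGF-2, against 30.4 and 18.4.

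The largest falls among the tied genes were in genes of several pathways. In BMP and TGF-β signalling, where SMAD proteins carry the signal and inhibitory SMADs restrain it, 9 of the 30 tested list members were tied to a region, of which 4 fell and 1 rose (median log2 fold change -0.42), while of all 30 members 10 fell and 12 rose (median -0.02). Smad6, an inhibitory SMAD induced by BMPs, had 2.34, 5.56 and 1.99 CPM with FGF-2, against 68.9, 59.3 and 33.5 CPM with serum alone (-3.94 ± 0.42 SE, adjusted p = 0.00047, or -4.61 without FGF-2 library 2). Its 3 regions lay 53.6, 73.5 and 78.1 kb after the gene start, and the first, in an intron (chr9:63967609-63968441), had signals of 5.71 and 19.0 with FGF-2, against 44.2 and 30.1 with serum alone. The transcription factor Atoh8 had 1.46, 1.76 and 0.72 CPM with FGF-2, against 24.7, 26.2 and 12.9 CPM (-3.91 ± 0.35 SE). Neither gene's groups overlapped. Acvrl1, a type I receptor, and the ubiquitin ligase Smurf1 fell, with log2 fold changes of -1.04 ± 0.20 and -0.42 ± 0.12, whereas Smad7, the other inhibitory SMAD, rose by 0.78 ± 0.12. Bmp2 (-0.44 ± 0.36), Id2 (-0.17 ± 0.21), Bmpr1a (0.03 ± 0.11) and Tgfbr1 (0.25 ± 0.15) did not pass.

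In Notch signalling, in which a ligand on one cell triggers cleavage of a receptor on the next, Hes1 and Neurl1b fell and Jag1 rose, and these were the 3 tied genes of 13 tested, of which 4 fell and 5 rose. Hes1, a repressor switched on by Notch, had 12.7, 11.9 and 12.5 CPM with FGF-2, against 22.1, 19.2 and 37.7 CPM with serum alone (-1.07 ± 0.24 SE, adjusted p = 0.0059). Its region, 16.6 kb after the start (chr16:30081986-30082556), had signals of 2.85 and 8 with FGF-2, against 35.9 and 27.6 with serum alone. Neurl1b, a ubiquitin ligase for Notch ligands, fell by 3.10 ± 0.32 and carried 4 regions, 3 of them within 1 kb of its start. The largest of these (chr17:26414843-26415486) had 14.3 and 13.0 with FGF-2, against 41.4 and 27.6 with serum alone. Jag1, a Notch ligand, had 1818, 1342 and 1853 CPM with FGF-2, against 46.6, 41.4 and 139 CPM with serum alone (4.48 ± 0.54 SE, adjusted p = 0.00096, or 5.25 without serum library 3). Its one region, in an intron 7.90 kb from the start (chr2:137108129-137108619), went down, with 0.95 and 7 with FGF-2, against 19.3 and 14.2 with serum alone.

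Of 24 tested guidance cues and receptors, 9 were tied, of which 5 fell and 1 rose (median -0.96), while of all 24 members 12 fell and 4 rose (median -0.71). Nrp2, a receptor for class 3 semaphorins, had 148, 113 and 89.6 CPM with FGF-2, against 399, 557 and 535 CPM with serum alone (-2.08 ± 0.20 SE, adjusted p = 7.7e-05). Ntn4, Sema5a, Ephb2 and Efnb1 fell, with log2 fold changes of -2.55 ± 0.43, -1.71 ± 0.19, -1.40 ± 0.17 and -0.96 ± 0.25, though Efnb1 was not called without serum library 2 or without the filter on low counts. Sema3a, a secreted semaphorin with 5 regions, rose by 0.62 ± 0.16 (adjusted p = 0.0092), but was not called when libraries were scaled by their totals. Over the other RNA settings 4 to 6 of the tied guidance genes fell.

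Of 27 tested genes of cyclic nucleotide signalling, 6 were tied, with 2 falls and 2 rises, against 9 falls and 7 rises in all 27. Pde5a, which degrades cyclic GMP, had 4.58, 4.41 and 4.89 CPM with FGF-2, against 44.3, 38.3 and 38.8 CPM with serum alone (-3.14 ± 0.14 SE, adjusted p = 4.4e-06). Prkar2b, a regulatory subunit of protein kinase A, fell by 1.41 ± 0.15, and the kinase scaffold Akap12 and the regulatory subunit Prkar2a rose by 1.74 ± 0.27 and 0.45 ± 0.14. The call of Prkar2a (adjusted p = 0.027) was lost with library totals, with upper-quartile scaling and when FGF-2 library 3 or either of serum libraries 1 and 2 was left out. Of 20 tested steroidogenic genes, 5 were tied, with 1 fall and 2 rises, against 4 falls and 7 rises in all 20. Cyp11a1, which cleaves the cholesterol side chain, had 54.3, 59.7 and 107 CPM with FGF-2, against 129, 104 and 139 CPM with serum alone (-0.76 ± 0.26 SE, adjusted p = 0.045). Its groups overlapped, and it was no longer called without serum library 1 or 3, without FGF-2 library 1 or 2, or without the filter on low counts. Its first-intron region (chr9:58002665-58003485) had signals of 12.4 and 2 with FGF-2, against 43.3 and 30.9 with serum alone. Soat1, which esterifies cholesterol, rose by 2.11 ± 0.26 and Por, the electron donor of microsomal P450 enzymes, by 1.37 ± 0.21, and each had 2 regions.

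Other lists gave few tied genes. Txnip, an inhibitor of thioredoxin and a FOXO target, had 5.46, 4.59 and 10.3 CPM with FGF-2, against 42.7, 70.9 and 41.7 CPM with serum alone, with 1 region 6.16 kb before its start that differed little, at 10.5 and 9 with FGF-2, against 12.9 and 11.7. Of 4 tied FOXO genes 1 fell and 2 rose, against 5 falls and 5 rises among the 15 tested. Of 4 tied adhesion genes 2 fell (Nfasc and Itga9) and 1 rose (Itgb1), against 4 falls and 8 rises among 26. Of 3 tied cell cycle genes 1 fell (Cdc25c) and none rose, while of all 34 tested 21 fell and 2 rose (median -0.81). Of 5 tied Wnt genes 1 fell and 3 rose, against 10 falls and 5 rises among 25. In the Wnt list Lrp6 rose by 1.07 ± 0.18. The 1 fall, Prickle1 (-0.66 ± 0.24, adjusted p = 0.044), was not called by the DESeq2 Wald test or when FGF-2 library 1 or 3, or serum library 1 or 2, was left out, while the rises of Wnt11 and Axin1 were not called in several other settings, and with library totals Axin1 had -0.05 in place of 0.29. The 1 tied retinoic acid gene, Aldh1a1, did not pass (-0.83 ± 0.31). Over all 10374 tested genes 1032 were tied to a region. Of the 18 tested ERK feedback genes and ETS targets on the list used, of which 15 rose, none was. That list did not hold the MAP kinase phosphatase Dusp1, which was tied to 3 regions and fell (-1.94 ± 0.15).

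Fam65b (now Ripor2) had 0.98, 1.59 and 0.91 CPM with FGF-2, against 18.4, 13.4 and 14.4 CPM with serum alone, and had 3 regions 6.20 to 17.7 kb before its start. The remaining large falls were Nfasc, with 1.76, 1.68 and 1.99 CPM with FGF-2, against 16.2, 16.4 and 10.8 CPM with serum alone (-3.02 ± 0.24 SE, adjusted p = 1.9e-05), and Chst12, a chondroitin sulfotransferase, with 6.63, 9.62 and 3.62 CPM, against 45.4, 41.9 and 43.5 CPM. The largest rises after Jag1 were in genes with 1 or 2 regions. Cdh17, a cadherin, had 103, 95.3 and 187 CPM with FGF-2, against 4.49, 6.92 and 11.8 CPM with serum alone. Pdp1, a phosphatase that activates pyruvate dehydrogenase, rose by 3.93 ± 0.18, the pseudokinase Trib1 by 3.28 ± 0.23, the kinase Sik1 by 2.95 ± 0.16, the scaffold Cnksr3 by 2.81 ± 0.27 and Socs5, a suppressor of cytokine signalling, by 2.59 ± 0.39. The rise of the cytokine gene Il24 (4.23 ± 1.27 SE, adjusted p = 0.044) was 2.83 without FGF-2 library 3, 5.34 without serum library 3, and it was not called without serum library 1 or 2, with library totals or without the filter on low counts. In all these genes the region had less signal with FGF-2 by the deposited fold, from -0.16 at Il24 to -2.08 at Jag1.

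**Figure D5:**
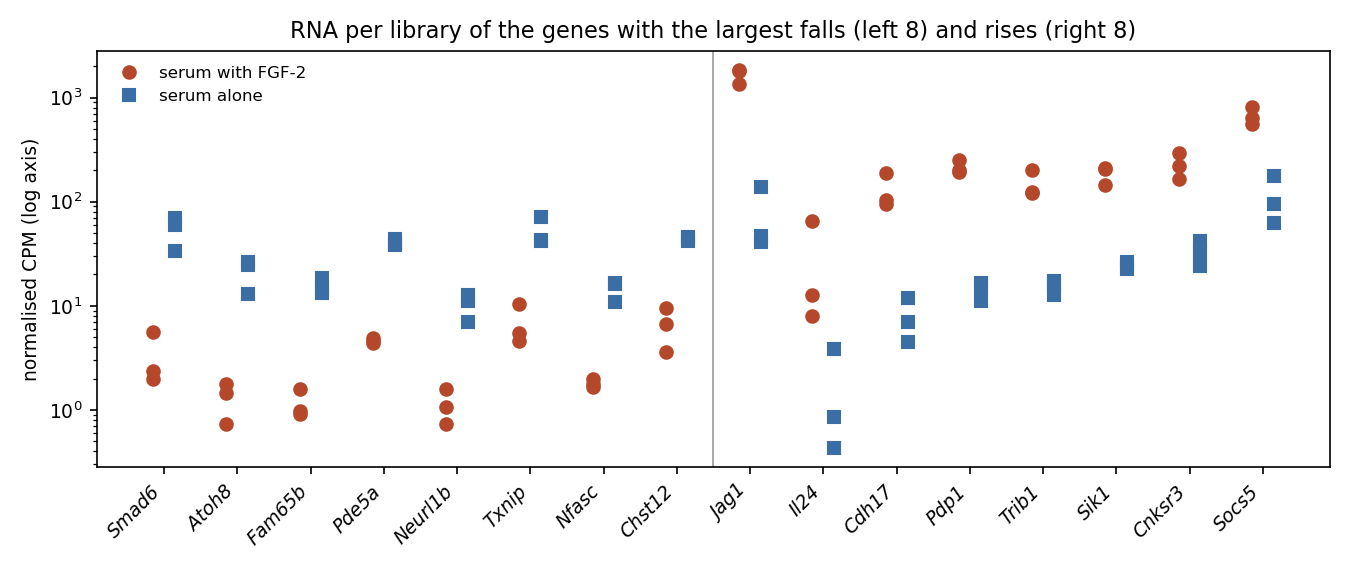
Normalised CPM per library on a log axis for the 8 tied genes with the largest falls and the 8 with the largest rises in RNA. Round points are the 3 FGF-2 libraries and squares the 3 serum libraries, which do not overlap in any of the 16 genes, as the choice of these genes required.

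The genes nearest to the most regions were Bre (now Babam2), a subunit of the BRCA1-A complex, with 15, Lrmda with 10, Exoc4, a subunit of the exocyst, with 9, and Rad51b, a recombination protein, with 7. Over its 15 regions, Bre had summed signals of 146 and 124 with FGF-2, against 308 and 279 with serum alone, and its RNA differed little (-0.32 ± 0.11 SE, adjusted p = 0.043), a call lost in 8 of the other RNA settings. Exoc4 had 94.1 and 104 with FGF-2, against 246 and 177 with serum alone, and fell by 0.53 ± 0.14, while the authors' peak background at its regions was 2.61 to 4.31 fragments in serum library 1, where it was 2.03 at many other regions. Lrmda and Rad51b did not pass in RNA.

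Among transcription factors with 3 or 4 regions, Gli2 (-0.47 ± 0.26), Maf (-0.56 ± 0.21) and Nr6a1 (-0.31 ± 0.17) did not pass, with adjusted p of 0.18, 0.055 and 0.15. Trps1, a repressor of the GATA family, had 32.7, 36.4 and 27.7 CPM with FGF-2, against 98.8, 91.4 and 87.0 CPM with serum alone (-1.51 ± 0.13 SE, adjusted p = 2.4e-05). Of its 5 regions 1 lay in the first intron and the others 26.1 to 205 kb before the start, and the one of lowest fold (chr15:50953437-50953959) had 2.85 and 4 with FGF-2, against 38.7 and 16.7 with serum alone. Nfib, a nuclear factor I protein, had 55.5, 46.4 and 58.5 CPM with FGF-2, against 167, 165 and 155 CPM with serum alone. Ror1, a receptor for Wnt5a, had 13.7, 16.3 and 9.42 CPM, against 85.0, 77.2 and 80.8 CPM. Npr3, the clearance receptor of natriuretic peptides, had 551, 596 and 459 CPM with FGF-2, against 1260, 1125 and 1305 CPM with serum alone, and its 4 regions summed to 9.51 and 24.0 with FGF-2, against 81.0 and 59.3 with serum alone.

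Stxbp6, a SNARE regulator with 5 intronic regions, had 7.51, 6.88 and 5.79 CPM with FGF-2, against 32.0, 34.5 and 22.4 CPM with serum alone (-2.13 ± 0.19 SE, adjusted p = 3.8e-05), and summed signals of 56.1 and 37.0, against 122 and 134. The transcriptional corepressor gene Cbfa2t3, with 1 region at its start and 4 in its first intron, fell (-2.15 ± 0.39, or -2.91 without FGF-2 library 2). Its regions summed to 39.9 and 63.0 with FGF-2, against 168 and 130 with serum alone. Dusp1, a MAP kinase phosphatase with 3 distal intergenic regions 9.09 to 23.3 kb after its start, fell (-1.94 ± 0.15), as did Dysf, a membrane repair protein (-1.95 ± 0.20), the potassium channel Kcnd2 (-1.89 ± 0.32) and the integrin subunit Itga9 (-0.999 ± 0.22). Groups did not overlap in any of these genes. The 5 rises among genes with 3 or more regions were Rtn4rl1 (1.95 ± 0.14), Myo10 (1.74 ± 0.15), Sestd1 (0.99 ± 0.14), Tmem170b (0.82 ± 0.10) and Sema3a. At Rtn4rl1 the region of lowest fold (chr11:75246337-75246806) had signals of 2.85 and 2 with FGF-2, against 26.7 and 19.2 with serum alone, opposite to its RNA of 192, 144 and 149 CPM, against 43.7, 38.4 and 43.0 CPM. The summed signal of its regions was lower in both FGF-2 libraries than in both serum libraries for each of the 69 tested genes with 3 or more regions, rises included, a direction that the choice of the regions favours.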

How the data were processed

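RNA was measured in 3 libraries and H3K27ac in 2 libraries per group, with inputs. The deposited RNA files hold raw counts per gene. The authors used STAR 2.5.2a, HTSeq 0.10.0, MACS2 2.2.6, DiffBind, ChIPseeker and the mm10 build, per the submitters' processing notes, while the sources used here give neither the strand setting nor the annotation. The authors' peak lists give a fold over background ratio, a −log10 p-value and a −log10 q per peak, called per library at a q of 0.01. The authors' deposited region table gives a signal per library, a log2 fold and a p-value with its false discovery rate. Every signal value up to 100 was a whole number of reads within 0.02 reads (100% of values), with a floor of 1 read.

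Peaks were merged across libraries and tied to the nearest gene of the authors' annotation. RNA counts were tested with edgeR 4.0.16 in R 4.3.3 (TMM factors, filterByExpr, quasi-likelihood F test, Benjamini-Hochberg adjustment over all tested genes), and DESeq2 1.42.0 was an alternative. Reads outside genes, 37.0% to 43.2% per library, stayed out of library sizes. RNA replicates differed by more than sampling noise (chi-square per degree of freedom of 9.71 or more). Tables and figures used Python 3.11.15, pandas 2.3.3, numpy 2.4.6 and matplotlib 3.10.9, and the tests were checked on simulated data. Intervals are 95% Wilson intervals and, like all counts of reads, cover counting error only.

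The regions, gene lists and tests were chosen with earlier results of these data known. Genes named are the 8 largest falls and rises whose mean was 5 CPM or more and whose groups did not overlap, genes tied to 3 or more regions, and up to 3 tied members per list by adjusted p. Regions named are the 8 with the highest serum peak fold, the 8 with the lowest deposited fold and up to 10 promoter regions with an RNA call. The 6 promoter windows, and list members beyond these, were chosen after their values were seen. Windows of 300 bases from a genome had been planned, and RefSeq promoter windows were used in their place. The result of 1 gene list is not reported here.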

Additional observations from a re-analysis of the deposited data

How the results depend on the processing

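With both serum peaks at a −log10 q of 5 or more, the rule gave 1022 regions, and without 1 H3K27ac library 3355 to 7835, since it then asks for fewer peaks to be present or absent. The 4 sets without a library had 14.353% to 16.167% at promoters and a median deposited log2 fold of -0.84 to -1.1, over the regions in the deposited table alone: 2635 of 5212 and 2427 of 7835 without serum library 1 or 2, and 3818 of 3826 and 3352 of 3355 without FGF-2 library 1 or 2. In these sets, with 1178 to 1719 tested tied genes, 404 to 563 fell, 227 to 347 rose and the median log2 fold change was -0.146 to -0.200. Without 1 RNA library 297 to 354 fell, 141 to 201 rose and the median was -0.192 to -0.219. Falls then made up 28.5% to 33.81% of the tied genes, against 17.93% to 23.95% of all tested genes. Rises made up 13.54% to 19.2%, against 15.39% to 22.79%. Among the 180 tested genes of promoter regions alone 66 fell and 18 rose (median -0.269). These counts, and those of the 4 sets without an H3K27ac library, used the main RNA fit. In that fit 24.2% of all tested genes fell and 22.1% rose. With library totals as the only scaling 570 tied genes fell (55.2%) and 88 rose (8.53%), with a median of -0.551. Of all tested genes 4675 fell (45.1%) and 1035 rose (9.98%) in that setting, and Axin1 was at -0.046. The tied genes' median was -0.349 with upper-quartile scaling, -0.190 with DESeq2 size factors, -0.194 with the DESeq2 Wald test and -0.175 with peaks at a −log10 q of 5 or more. The cause of these shifts was not tested. The tests added after the data were seen, on recovered reads, called 585 regions lower, or 383 with a replicate block, the latter without a share over all deposited regions. Same-numbered RNA libraries deviated with correlations of -0.10, 0.07 and 0.38, so the numbers alone do not show a pairing. FGF-2 library 1 with serum library 2 had 0.38, and FGF-2 library 2 with serum library 1 had 0.32. A pairing in that other order was not tested, and the block used the library numbers. With the replicate block 373 tied genes fell (36.1%, against 25.5% of all tested genes) and 201 rose (19.5%, against 22.9%). Of 84 named genes with a call, 71 kept it in each RNA setting run. Regions had a median of 8 reads in each FGF-2 library, which limits single-region folds.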
